A study of Mus musculus with 20 samples.

Results

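The renin-angiotensin system was followed through 7 genes, taken by their symbols from the count tables of mouse lung: Agt, Ace, Agtr1a, Agtr2, Mas1, Enpep and Mme. All 7 stand among the 24062 genes listed. Agt, Ace, Agtr1a, Enpep and Mme passed the filter on low counts and were tested with 15766 genes in all, so 5 of 7 have a test. Agtr2 and Mas1 did not pass it and are given as counts.

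The samples are whole lungs of mice of a mixed C57/129 background, 8 to 10 weeks old, either wild type for Arg2 (Arg2+/+) or carrying a knockout of it (Arg2-/-). Arg2 encodes the mitochondrial arginase. Within each genotype 4 samples came from mice kept for 28 days in room air with 21% O2 and 4 from mice kept as long in 10% O2, so there were 4 groups of 4. The labels name no cell type or promoter to which the knockout is restricted, and which exons were removed is not stated in them.

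Angiotensinogen, the product of Agt, is cut by renin to angiotensin I, which angiotensin-converting enzyme (ACE), a peptidase abundant on the endothelium of lung capillaries, turns into angiotensin II. Angiotensin II constricts vessels through the AT1 receptor (Agtr1a and Agtr1b in mice). The AT2 receptor (Agtr2) and the receptor Mas, which binds angiotensin-(1-7), are described as the opposing arm. Aminopeptidase A (Enpep) trims angiotensin II to angiotensin III, and neprilysin (Mme) cuts angiotensin I to angiotensin-(1-7) and also degrades natriuretic peptides, kinins and other small peptides.

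Reads counted in genes ranged from 9531270 to 63331530 per sample, and wild type room air 3 had both the fewest counts and, of its reads in genes or in none, the lowest share in genes, 25.4%. Markers of lung epithelium and endothelium were high throughout, with Sftpc at 8229 CPM (the usual count scaled to library size) or more and Pecam1 at 966 CPM or more in each sample. Room air lungs had 9.19 ± 1.92 CPM of Arg2 (SD, n = 4) when wild type and 5.62 ± 1.47 when knockout, and hypoxic lungs 9.30 ± 2.25 and 4.28 ± 0.912. The Arg2 difference passed the test under hypoxia (log2 fold change -1.13 ± 0.22 SE, edgeR adjusted p = 0.00191) but not in room air (-0.70 ± 0.21, adjusted p = 0.0842). Summed markers of pancreas reached 1519 CPM in 1 sample of knockout hypoxia, heart markers 1018 CPM in 1 sample of knockout room air and thymus or B lineage markers 96.1 CPM in another. Results were therefore also computed without knockout room air 3 and 4 and knockout hypoxia 1 and 2, the samples that held transcripts of other organs. Whole-lung RNA cannot tell more cells of a type from more RNA per cell.

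RefSeq promoter windows of GRCm38.p6 were at hand for 6 of the 7 genes. The 250 bases before the annotated start are shown for Ace, Agt and Mme, the members called in a hypoxia comparison. Ace has 2 windows: the first lies before the start of the somatic transcript and the second before an internal start, and the counts do not separate the 2 kinds of transcript. Mme has 3 windows, of which the one with a match to a hypoxia response core is shown. Capitals mark ACGTG and GCGTG, cores of the hypoxia response element, and TATAA, the core of a TATA box, on either strand, so that their reverse complements are marked too, and overlapping matches run together.

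Ace, first start, chr11:105967698-105967947, plus strand: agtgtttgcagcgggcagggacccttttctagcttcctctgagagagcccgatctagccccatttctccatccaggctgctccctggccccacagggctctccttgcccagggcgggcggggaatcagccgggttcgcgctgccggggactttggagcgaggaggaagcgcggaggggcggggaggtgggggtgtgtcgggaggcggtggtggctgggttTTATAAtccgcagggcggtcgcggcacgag
Ace, internal start, chr11:105974939-105975188, plus strand: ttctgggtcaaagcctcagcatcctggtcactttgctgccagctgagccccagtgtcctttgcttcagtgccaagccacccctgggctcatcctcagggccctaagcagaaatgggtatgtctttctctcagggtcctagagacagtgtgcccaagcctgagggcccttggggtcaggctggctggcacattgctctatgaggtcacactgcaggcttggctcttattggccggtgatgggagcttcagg
Agt, chr8:124569707-124569956, minus strand: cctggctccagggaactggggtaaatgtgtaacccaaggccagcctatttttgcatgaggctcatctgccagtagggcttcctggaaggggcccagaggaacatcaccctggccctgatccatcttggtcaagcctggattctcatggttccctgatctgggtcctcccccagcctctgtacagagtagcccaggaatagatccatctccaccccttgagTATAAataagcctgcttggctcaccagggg
Mme, most downstream start, chr3:63295845-63296094, plus strand: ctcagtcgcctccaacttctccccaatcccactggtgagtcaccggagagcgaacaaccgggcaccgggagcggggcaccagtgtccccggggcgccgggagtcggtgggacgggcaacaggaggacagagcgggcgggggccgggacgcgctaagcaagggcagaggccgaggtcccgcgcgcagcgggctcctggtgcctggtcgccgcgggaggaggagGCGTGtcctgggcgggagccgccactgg

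The first Ace window and the Agt window hold TATAA near their 3′ end, and the internal Ace window holds none of the motifs. A hypoxia response core was found in 1 of the 9 member windows, the Mme window shown, and in 38.6% of all 32851 windows of the same length in the RefSeq table. TATAA was found in 4 of the 9 windows and in 22.8% of all. These matches are letters in a window and were not tested as binding sites.

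Per length, the tested genes were spread over a wide range. Ace, which lies at chr11:105967945-105989964 of GRCm38, had 224 RPKM (CPM per kilobase of annotated exon) as the mean of the 16 samples, with a range of 157 to 299. Enpep followed at 51.3 RPKM (43.6 to 61.6), Mme at 22.1 (14.5 to 29.0), Agtr1a at 4.26 (3.33 to 5.68) and Agt at 0.619 (0.197 to 1.69). No range met the next, so this order held in every sample. Agtr2 at 0 to 0.0528 RPKM and Mas1 at 0 to 0.0233 lay below and overlapped each other. With the longest transcript as the length, Enpep was at 57.7 RPKM and Mme at 31.8, and the order of the 7 means was the same. The lung thus held much transcript of the 3 cell-surface peptidases, little of the main angiotensin II receptor and very little of the substrate.

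**Figure D1:**
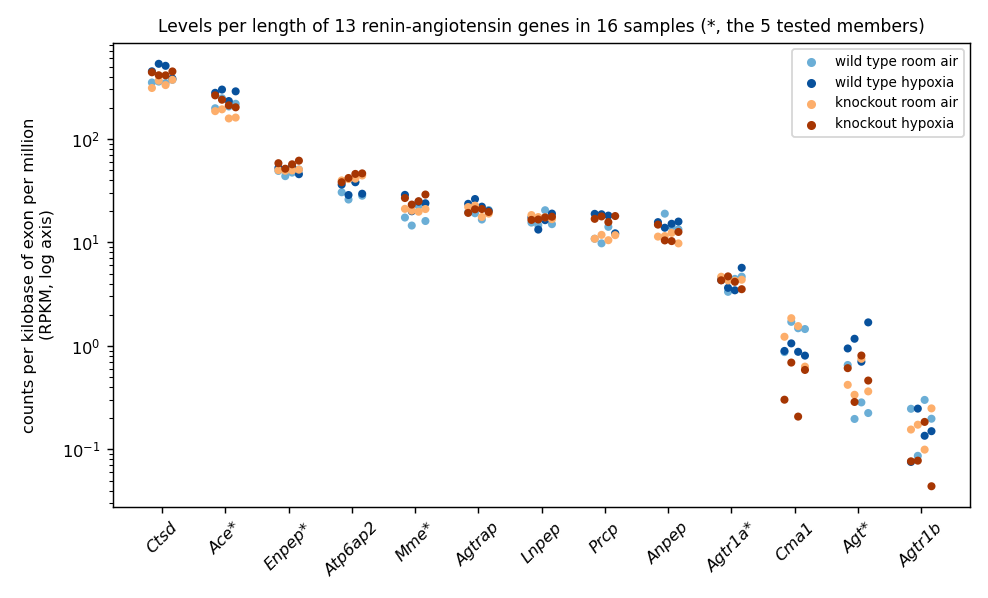
Level per length (RPKM, log axis) of the 5 tested members (asterisks) and 8 other renin-angiotensin genes in each of the 16 samples, coloured by group. Ace stands at 157 to 299 RPKM and Agt at 0.197 to 1.69, with Enpep, Mme and Agtr1a between them.

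Agt, at chr8:124556534-124569706 on the minus strand, rose with hypoxia in wild type. Its level was 1.24, 0.372, 0.538 and 0.424 CPM in wild type room air 1 to 4, from 56, 12, 5 and 15 counts. In wild type hypoxia it was 1.78, 2.22, 1.33 and 3.19 CPM, from 33, 75, 32 and 109 counts. The TMM scaling factor behind CPM was 0.798 in wild type hypoxia 4 and 0.969 to 1.052 in the other samples. A lower factor gives a higher CPM for the same count and depth. Every hypoxia sample lay above every room air sample, although room air 1 came close to hypoxia 3. The fitted rise was 3.19-fold (log2 fold change 1.68 ± 0.42, 95% interval 0.79 to 2.56, edgeR adjusted p = 0.0241).

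In the knockout Agt stood at 0.795, 0.637, 1.42 and 0.687 CPM in room air and 1.15, 0.543, 1.53 and 0.874 CPM in hypoxia. Those groups overlapped, and the log2 fold change was 0.14 ± 0.42 (interval -0.73 to 1.01, adjusted p = 0.863). Among hypoxia samples the knockout value of Agt was 1.02 ± 0.417 CPM against 2.13 ± 0.794 in wild type, a log2 fold change of -1.09 ± 0.41 that did not pass the test (adjusted p = 0.0605). The same Agt difference was called by DESeq2 (adjusted p = 0.0432), by limma voom (0.0331), with the compared groups alone (0.0439) and when room air 1 (0.0365) or hypoxia 3 (0.0456) of wild type was left out. The difference between the hypoxia effects of the genotypes was -1.53 ± 0.59 on the log2 scale and did not pass either (unadjusted p = 0.0179, adjusted p = 0.241). An effect particular to wild type is therefore not shown.

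The call for Agt in wild type rests on few counts. Leaving out room air 2 (adjusted p = 0.0826), room air 4 (0.0918) or hypoxia 4 (0.0702) of wild type ended it, and it was also lost when the 2 wild type groups were fitted alone (0.0664), with log2 fold changes of 1.42 to 1.67 in these fits. Agt is known to be made chiefly in liver and also in fat. The summed 8 liver markers stood at 0.860 to 3.20 CPM in wild type room air, where Serpina1a had no count, and at 1.29 to 6.33 CPM in wild type hypoxia, with Alb at 0.323 to 2.07 and 0.148 to 2.49 CPM. The summed 8 adipocyte markers, none at 0 in a group, stood at 179 to 283 and 255 to 325 CPM, with Adipoq at 4.44 to 14 and 5.06 to 13 CPM. With hypoxia in wild type 1 of the 3 tested liver markers was called higher and 0 lower (median log2 fold change 0.67). Of the 8 adipocyte markers 1 was called higher and 0 lower (median -0.29). Of all genes 2.67% were called higher there and 4.98% in either direction. In the knockout 1 of the 3 liver markers was called higher and 0 lower (median 2.28). Of the 8 adipocyte markers 1 was called higher and 4 lower there (median -1.69), where 17% of all genes were called. Adipoq stood at 9.2 to 17.2 CPM in knockout room air and 1.02 to 5.36 in knockout hypoxia. The summed adipocyte markers stood at 202 to 275 and 185 to 277 CPM in these groups. The part of liver or fat in the Agt results was not tested.

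Almost no reads were counted for renin. Ren1 had 0 counts in all 16 samples, and Ren2 had 5 counts in 3 samples. The floor of 3 counts stands for 0.0457 to 0.323 CPM according to depth. The 2 genes are near-identical copies, and reads that fit both would not have been counted for either. This floor therefore sets no upper limit on renin transcript. Atp6ap2, the (pro)renin receptor, was at 37.1 RPKM as the mean of the 16 samples.

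Ace, the converting enzyme, was higher after hypoxia in both genotypes, and the rise passed the test in the knockout. Wild type room air samples had 1045, 1303, 1087 and 1154 CPM and wild type hypoxia samples 1473, 1583, 1226 and 1522 CPM. The groups overlapped through room air 2 and hypoxia 3. The fold was 1.26 (log2 fold change 0.34 ± 0.11, interval 0.12 to 0.56), with an unadjusted p of 0.00467 and an edgeR adjusted p of 0.0739.

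Knockout room air samples had 980, 1020, 833 and 849 CPM of Ace and knockout hypoxia samples 1392, 1263, 1115 and 1067 CPM. These groups did not overlap, and the fold was 1.31 (log2 fold change 0.39 ± 0.11, interval 0.17 to 0.61, adjusted p = 0.0138). The difference between the 2 hypoxia effects was 0.05 ± 0.15 (interval -0.26 to 0.37, adjusted p = 0.921). The knockout call for Ace was lost without knockout room air 3 (log2 fold change 0.35, adjusted p = 0.0512), without knockout hypoxia 1 (0.32, adjusted p = 0.0531) and without the 4 samples that held transcripts of other organs, where 2 samples a group remained and the change fell to 0.13 (adjusted p = 0.664). The wild type change was called when room air 2 (0.41, adjusted p = 0.0456) or hypoxia 3 (0.41, adjusted p = 0.0359) was left out, by DESeq2 (0.34, adjusted p = 0.0315) and with the GC trend removed (0.34, adjusted p = 0.0361).

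Ace was lower in the knockout than in wild type at both oxygen levels without passing the test at either. In room air the means were 920 ± 93.5 and 1147 ± 113 CPM, the groups did not overlap, and the log2 fold change was -0.32 ± 0.11 (edgeR adjusted p = 0.100). It was called without wild type room air 3, the sample of lowest depth (-0.34, adjusted p = 0.0495). In hypoxia the means were 1209 ± 147 and 1451 ± 156 CPM, and the log2 fold change was -0.26 ± 0.11 (adjusted p = 0.0773). This difference was called without wild type hypoxia 3 (-0.31, adjusted p = 0.0440), without knockout hypoxia 1 (-0.34, adjusted p = 0.0342), with upper quartile scaling (-0.30, adjusted p = 0.0451) and without the 4 samples that held transcripts of other organs (-0.41, adjusted p = 0.0391). The antisense gene Gm11651 shares 5.58% of the Ace exon length, and its count was at most 0.0225% of that of Ace in any sample.

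The levels of endothelial markers were compared beside Ace. The 14 markers of general and capillary endothelium summed to 5277 to 5492 CPM in room air and 4560 to 5303 in hypoxia in wild type, and to 5002 to 5641 and 5240 to 5706 CPM in the knockout. In hypoxia 1 of the 14 was called higher and 4 lower in wild type, and 4 higher and 4 lower in the knockout, where 4.98% and 17% of all genes were called in either direction. The 8 arterial markers summed to 650 to 836 CPM in wild type room air and 1405 to 1821 in wild type hypoxia, and to 641 to 794 and 1338 to 1641 CPM in the knockout. Of these 8, 3 were called higher and 2 lower with hypoxia in wild type, and 4 higher and 2 lower in the knockout. The part of either list in the Ace result was not tested.

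Agtr1a, the main AT1 receptor gene (chr13:30336441-30382867), showed no detectable difference in any comparison. Wild type samples had 12.6, 9.27, 12.4 and 13 CPM in room air and 12, 10.1, 9.59 and 15.8 in hypoxia. Knockout samples had 13, 11.9, 11.8 and 12.1 CPM in room air and 12, 13.1, 11.6 and 9.83 in hypoxia. The groups overlapped throughout, and wild type hypoxia 4, the sample of lowest scaling factor, was the highest sample. The log2 fold change with hypoxia was 0.02 ± 0.15 in wild type (interval -0.30 to 0.33, edgeR adjusted p = 0.976) and -0.08 ± 0.15 in the knockout (interval -0.39 to 0.23, adjusted p = 0.785). Between genotypes it was 0.05 ± 0.15 in room air (interval -0.26 to 0.37) and -0.04 ± 0.15 in hypoxia (interval -0.35 to 0.27).

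The paralog Agtr1b had 0.446 ± 0.196 CPM in room air and 0.327 ± 0.153 in hypoxia when wild type, and 0.363 ± 0.132 and 0.205 ± 0.131 when knockout, and was called in 0 comparisons (adjusted p of 0.270 or more, 51, 39, 56 and 20 counts in the same order). Agtr1a and Agtr1b are similar in sequence, so reads that fit both may be missing from each. Per length, Agtr1a at 4.26 RPKM was far above Agtr1b at 0.156.

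The receptors of the opposing arm were nearly absent from the tables. Agtr2 had 9 counts in all: 1 each in wild type room air 2 and 3 and knockout room air 2, and 6 in wild type hypoxia 4, with 0 in the other 12 samples. Mas1 had 2 counts in wild type room air 1 and 4 in knockout room air 3 and 0 in the other 14. An exact two-sided permutation test of CPM gave p of 0.714 or more for either gene in every comparison, where 4 samples against 4 allow 0.0286 at the smallest. At these counts a difference was not detectable. Mas1 lies on the other strand within the span of the long noncoding RNA Airn and shares no exon base with it.

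Enpep, aminopeptidase A (chr3:129269175-129332720, minus strand), was evenly expressed. Wild type samples had 231, 205, 222 and 238 CPM in room air and 247, 240, 254 and 214 in hypoxia. Knockout samples had 234, 231, 233 and 237 CPM in room air and 274, 242, 267 and 290 in hypoxia. Each knockout hypoxia sample exceeded each knockout room air sample, whereas the wild type groups overlapped. The log2 fold change with hypoxia was 0.20 ± 0.08 in the knockout (edgeR adjusted p = 0.0802) and 0.09 ± 0.08 in wild type (adjusted p = 0.621), and the difference between them was 0.10 ± 0.11 (adjusted p = 0.732). The knockout change was called by DESeq2 (0.20, adjusted p = 0.0457), with the GC trend removed (0.24, adjusted p = 0.0204), with the compared groups alone (0.18, adjusted p = 0.0486) and without knockout hypoxia 2 (0.24, adjusted p = 0.0477). Between genotypes Enpep differed by 0.06 ± 0.08 in room air (adjusted p = 0.674) and 0.17 ± 0.08 in hypoxia (adjusted p = 0.111).

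Mme, neprilysin (chr3:63241537-63386030), rose with hypoxia in wild type by the test. Its level was 200, 168, 260 and 186 CPM in wild type room air and 332, 231, 285 and 275 CPM in wild type hypoxia. The groups overlapped, because room air 3, the sample of lowest depth, lay above hypoxia 2. Hypoxia 1, the highest of its group, had the lowest share of reads in genes of that group, 35.5%. The fold was 1.38 (log2 fold change 0.47 ± 0.12, interval 0.21 to 0.72, edgeR adjusted p = 0.0279).

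Knockout samples had 243, 234, 228 and 242 CPM of Mme in room air and 310, 267, 288 and 335 CPM in hypoxia, with no overlap. The knockout fold was 1.27 (log2 fold change 0.34 ± 0.12, interval 0.09 to 0.59) with an adjusted p of 0.0583. The difference between the 2 hypoxia effects was -0.13 ± 0.17 (adjusted p = 0.811), so the call in one genotype and not the other does not show that they differ. Removing each sample's trend with GC content called the knockout change (0.36, adjusted p = 0.00288), as did 9 other alternatives.

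The wild type call for Mme was lost in 7 alternatives: without wild type room air 1 (adjusted p = 0.0652), 2 (0.0923) or 4 (0.0954), without wild type hypoxia 1 (0.125) or 3 (0.0759), without the 4 samples that held transcripts of other organs (0.0732) and with the wild type groups fitted alone (0.149). The log2 fold change was 0.38 to 0.47 in those fits. The 4 samples that held transcripts of other organs are all from the knockout, so leaving them out kept every wild type sample. The wild type log2 fold change of Mme was then 0.467, against 0.466 in the main fit. Between genotypes Mme differed by 0.22 ± 0.12 in room air (adjusted p = 0.295), called without wild type room air 3 (0.36, adjusted p = 0.0297), and by 0.10 ± 0.12 in hypoxia (adjusted p = 0.599). Both of these values turned negative, -0.11 and -0.15, when the GC trend was removed. Neutrophils carry neprilysin too. The 6 neutrophil markers in the tables, none at 0 in a group, summed to 209 to 600 CPM in wild type room air and 406 to 1185 in wild type hypoxia. None was called with hypoxia in wild type, where 4.98% of all genes were called. In the knockout they summed to 316 to 1213 CPM in room air and 271 to 348 in hypoxia. There 2 of the 6 were called lower and 0 higher, where 17% of all genes were called. The part of neutrophils in the Mme result was not tested.

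**Figure D2:**
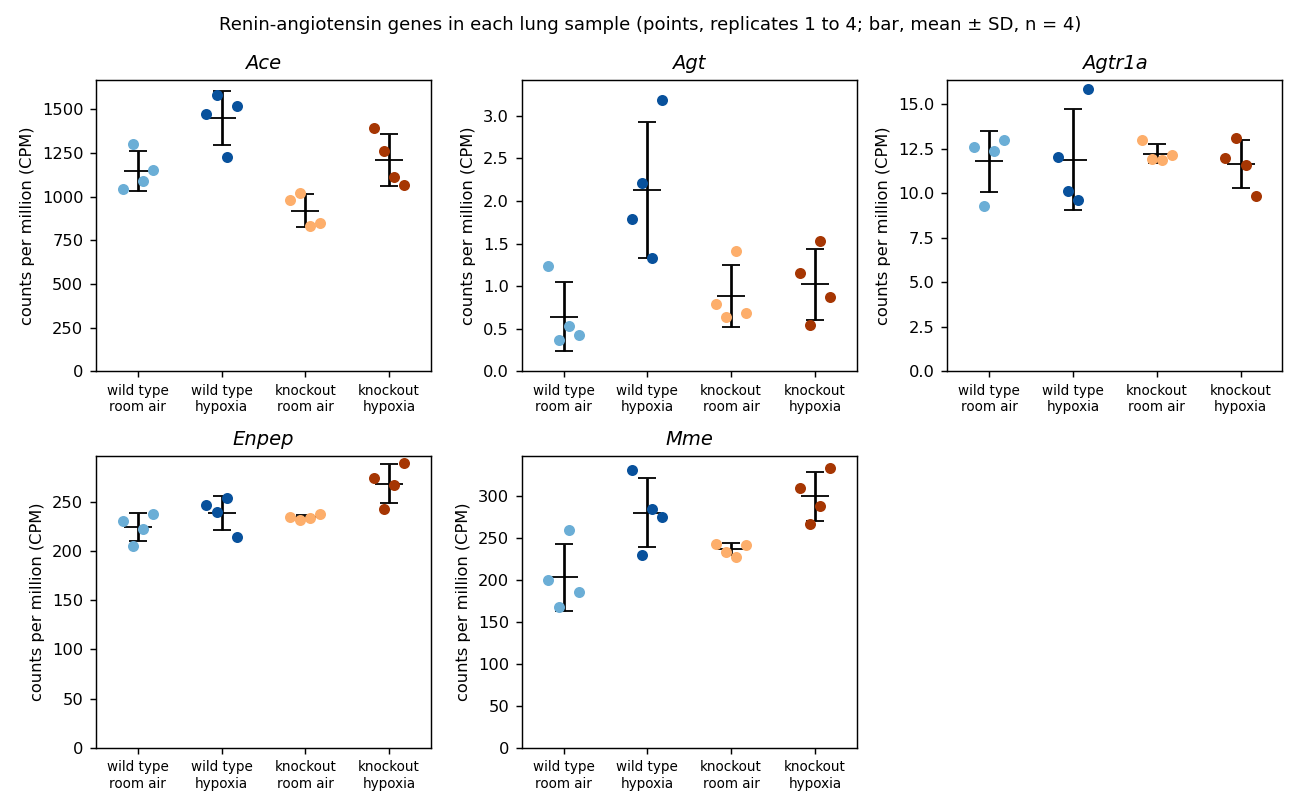
CPM of the 5 tested members in each sample by group, with the mean and SD of 4 samples; each axis starts at 0. Agt separates wild type hypoxia (1.33 to 3.19 CPM) from wild type room air (0.372 to 1.24), Ace and Mme are higher in hypoxia, and Agtr1a overlaps throughout.

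Counted over the set, 2 of the 5 tested members (Agt and Mme) were called higher with hypoxia in wild type, where 2.67% of all genes tested were called higher and 4.98% were called in either direction. In the knockout 1 of 5 (Ace) was called higher, against 7.94% of all genes higher and 17% in either direction. Of the 5 members, 0 were called between genotypes in room air (background 0.0761%), 0 between genotypes in hypoxia (background 23%) and 0 for the difference between the hypoxia effects (background 0.501%) by edgeR. The unadjusted p was under 0.05 for 1 member in room air (Ace; 21.6% of all genes), 3 between genotypes in hypoxia (Ace, Agt and Enpep; 36.9%) and 1 in the difference (Agt; 14.1%). DESeq2 and limma voom each called 0, 1 and 0 in the same order. Of all genes DESeq2 called 1091, 4270 and 474 and limma voom 958, 3809 and 83 in that order. Groups did not overlap for 1 member with hypoxia in wild type (8.24% of all genes) and 3 in the knockout (24.4%). Between genotypes that held for 1 member in room air (10.4%) and 0 in hypoxia (25.4%). With so few members these shares describe the set only. The median log2 fold change of the 5 was 0.34 with hypoxia in wild type and 0.20 in the knockout, against -0.01 and 0.00 over all genes.

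**Figure D3:**
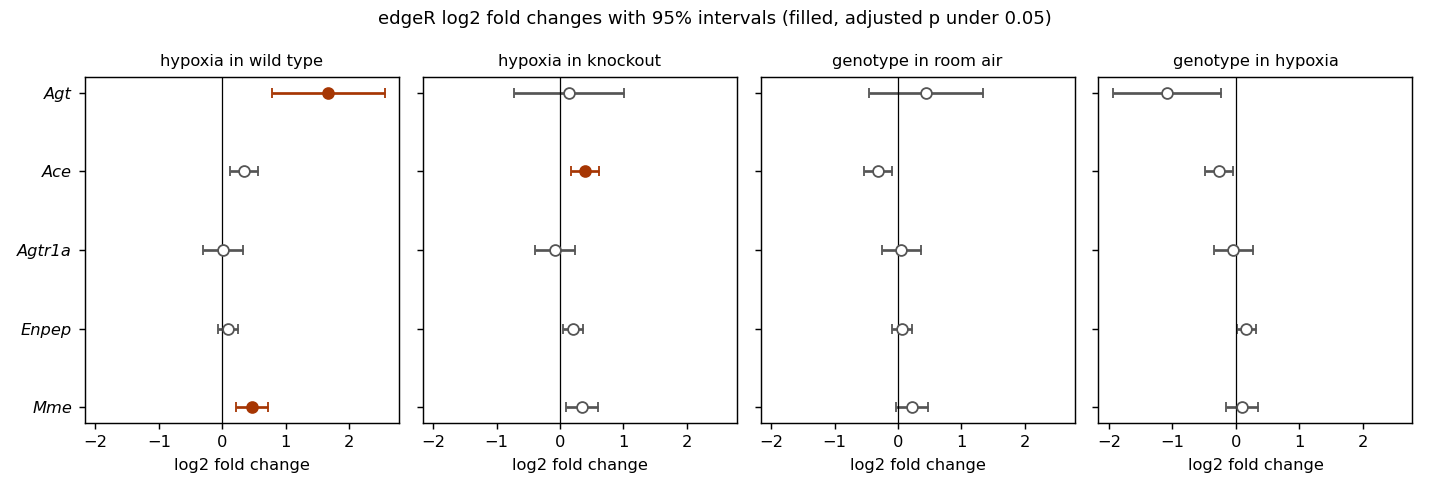
Log2 fold changes (points) with 95% intervals from edgeR for the 5 tested members; hypoxia against room air in the first 2 panels, knockout against wild type in the others. Filled points are called at an adjusted p under 0.05: Agt and Mme in wild type, Ace in the knockout.

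The wider list of 19 angiotensin-processing enzymes, receptors and regulators held 15 tested genes. With hypoxia 2 were called higher in wild type: Prcp, prolylcarboxypeptidase, which removes the last residue of angiotensin II (log2 fold change 0.53 ± 0.12, edgeR adjusted p = 0.0148), and Ctsd, cathepsin D (0.39 ± 0.09, adjusted p = 0.0162). In the knockout Prcp (0.61 ± 0.12, adjusted p = 0.00207) and Ctsd (0.31 ± 0.09, adjusted p = 0.0250) were again higher. Lower there were Nr3c2, the mineralocorticoid receptor (-0.35 ± 0.11, adjusted p = 0.0439), and Cma1, the mast cell chymase that also makes angiotensin II (-1.51 ± 0.38, adjusted p = 0.00869). That gives 2 higher and 2 lower of 15 in the knockout, where 17% of all genes were called. For wild type, with 2 of 15 called, that share was 4.98%. In wild type the Prcp call was lost without room air 2, hypoxia 1 or hypoxia 3 (adjusted p of 0.0536 to 0.0625) and the Ctsd call without hypoxia 2 or 3 (0.0598 and 0.0661). Both were lost with the wild type groups fitted alone (0.106 and 0.0984), and Ctsd without the 4 samples that held transcripts of other organs (0.0501). Those 4 are knockout samples, and the wild type change of Ctsd was 0.392 without them and 0.391 in the main fit. In the knockout the Ctsd call was lost without room air 1 or 3 or hypoxia 1 or 4 (0.0556 to 0.0930). The Nr3c2 call was lost without wild type room air 1, knockout room air 1, 3 or 4, or knockout hypoxia 1, 2 or 4 (0.0506 to 0.146), and with the GC trend removed (0.0700). Without those 4 samples the knockout calls of Prcp, Ctsd and Nr3c2 were lost (0.102, 0.187 and 0.345). Part of the Ctsd exons, 34.4% of their length, is shared with the gene model Gm49369 on the same strand.

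Cma1 is a mast cell gene, and 4 of the 5 tested mast cell markers, itself among them, were called lower with hypoxia in the knockout. Of all genes, 17% were called there in either direction. The 6 mast cell markers in the tables summed to 225 to 305 CPM in knockout room air and 183 to 214 CPM in knockout hypoxia. In wild type the sum was 250 to 292 CPM in room air and 172 to 196 CPM in hypoxia, also without overlap, while Cma1 was not called there (-0.58 ± 0.36, edgeR adjusted p = 0.467). The part of mast cell number in the Cma1 value was not tested.

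Between genotypes in hypoxia 6 of the 15 wider genes were called, where 23% of all genes were. Atp6ap2 was higher in the knockout (0.38 ± 0.11, edgeR adjusted p = 0.0225). Lower were Prep (-0.36 ± 0.08), Nln (-0.30 ± 0.08) and Dpp3 (-0.24 ± 0.07), peptidases that cut angiotensins, Ctsa, cathepsin A (-0.32 ± 0.08), and Nr3c2 (-0.45 ± 0.11), with adjusted p from 0.00503 to 0.0263. With the GC trend removed Dpp3 fell by 0.09 on the log2 scale (adjusted p = 0.424) and Ctsa by 0.18 (adjusted p = 0.0728), and Atp6ap2 rose by 0.20 only (adjusted p = 0.0727), so these 3 were not called. Atp6ap2 also lost its call without wild type hypoxia 2 or 4 or knockout hypoxia 3 or 4 (adjusted p of 0.0655 to 0.0732), and Dpp3 without wild type hypoxia 2 or 3 or knockout hypoxia 2, 3 or 4 (0.0516 to 0.0875). Without the 4 samples that held transcripts of other organs Dpp3, Nln and Nr3c2 were not called (0.120, 0.0625 and 0.0810). Ctsa shares exon bases with Neurl2 and Pltp on the other strand, whose reads would add to its count if strand was ignored. In room air edgeR called 0 of the 15 (3 at an unadjusted p under 0.05, 2 by DESeq2 and 2 by limma voom). Of all genes 0.0761% were called there and 21.6% had an unadjusted p under 0.05, and DESeq2 called 1091 genes and limma voom 958. For the difference between the hypoxia effects edgeR called 0 of the 15 (1 at an unadjusted p under 0.05, 0 by either other tool). Its shares of all genes were 0.501% and 14.1%, with 474 genes called by DESeq2 and 83 by limma voom. The room air difference of Atp6ap2 was 0.44 ± 0.11, higher in the knockout with no overlap and no call (edgeR adjusted p = 0.0648).

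Of 13 tested genes of the kinin and neprilysin families, edgeR called 0 with hypoxia in wild type (1 at an unadjusted p under 0.05, 1 by DESeq2, 0 by limma voom) and 4 in the knockout. The share of all genes called was 4.98% in wild type, where DESeq2 called 1135 genes and limma voom 818. In the knockout that share was 17%. Xpnpep1, an aminopeptidase that degrades bradykinin, was higher (0.35 ± 0.08, edgeR adjusted p = 0.00370). Lower were Bdkrb1, the inducible B1 kinin receptor (-1.37 ± 0.41, adjusted p = 0.0272), Cpm, carboxypeptidase M (-0.36 ± 0.08, adjusted p = 0.00474), and Ece1, endothelin-converting enzyme 1 (-0.41 ± 0.13, adjusted p = 0.0339). In wild type the log2 fold change of Ece1 was -0.43 ± 0.13, with no overlap and no call (edgeR adjusted p = 0.0582). Leaving out 1 sample ended the Bdkrb1 call for knockout room air 1 and knockout hypoxia 2, 3 or 4 (adjusted p of 0.0584 to 0.0979). It ended the Ece1 call for knockout room air 1, 2 or 3 and knockout hypoxia 2, 3 or 4 (0.0510 to 0.122). Without the 4 samples that held transcripts of other organs Bdkrb1 and Cpm were not called (0.0695 and 0.129). Cpm was also lower in the knockout than in wild type in hypoxia (-0.42 ± 0.08, adjusted p = 0.00232).

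Klk1, tissue kallikrein, and Kel, a relative of neprilysin on red cells, were called higher in the knockout in hypoxia, each largely through 1 sample. Klk1 was at 11.7, 0.668, 0.113 and 0.213 CPM in knockout hypoxia and 0.270, 0.0591, 0.125 and 0.146 in wild type hypoxia (log2 fold change 4.49 ± 1.24, edgeR adjusted p = 0.0197). Without knockout hypoxia 1 it was 1.22 (adjusted p = 0.165) and without the 4 samples that held transcripts of other organs 0.32 (adjusted p = 0.790), and it also lost its call without wild type hypoxia 2 (4.19, adjusted p = 0.0576), without wild type hypoxia 4 (4.53, adjusted p = 0.0537) and by limma voom (2.37, adjusted p = 0.189). Klk1 is made in pancreas, and knockout hypoxia 1 was the sample with the most Cpa1, 227 CPM; the part of pancreas in the Klk1 value was not tested. Kel was at 0.230, 3.67, 0.904 and 0.756 CPM in knockout hypoxia and 0.216, 0.413, 0.332 and 0.0585 in wild type hypoxia (2.41 ± 0.73, adjusted p = 0.0245), and lost its call without knockout hypoxia 2 (1.27, adjusted p = 0.176), wild type hypoxia 1 (2.36, adjusted p = 0.0569) or wild type hypoxia 4 (2.05, adjusted p = 0.0719), without the 4 samples (1.68, adjusted p = 0.0791) and by limma voom (1.92, adjusted p = 0.0917).

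Downstream of the AT1 receptor, all 29 signalling genes in the tables were tested. With hypoxia in wild type 3 were called higher and 2 lower, where 4.98% of all genes were called. Rgs5 and Rgs4, regulators that shorten signalling through Gq-coupled receptors, rose by 2.49 ± 0.34 and 1.55 ± 0.24 on the log2 scale (edgeR adjusted p = 0.00046 and 0.00107), and Prkcb, protein kinase C beta, fell by 0.69 (SE 0.13, adjusted p = 0.00285). In the knockout 6 were higher and 3 lower, where 17% of all genes were called. Prkcb was at -1.65 ± 0.14, Rgs5 at 4.41 ± 0.34 and Plcb1, a phospholipase C activated by Gq, at 0.95 ± 0.12 (edgeR adjusted p of 1.98e-05 or less). Rgs5 is also among the 12 pericyte markers used here, whose sum stood at 1177 to 1499 and 1409 to 1549 CPM in wild type room air and hypoxia, and at 1193 to 1327 and 1420 to 1615 CPM in the knockout; its part was not tested.

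Between genotypes in hypoxia 6 of the 29 were higher and 6 lower in the knockout, against 23% of all genes called, led by Prkcb (-1.19 ± 0.13, edgeR adjusted p = 3.91e-05), Rgs5 (2.54 ± 0.31, adjusted p = 0.000204) and Rock2, a kinase that promotes smooth muscle contraction (0.60 ± 0.11, adjusted p = 0.00149). Prkcb was the 1 gene of the 29 whose hypoxia effect differed between genotypes by the test, at -0.96 ± 0.19 (adjusted p = 0.0243). Wild type lungs had 55.0, 63.3, 44.4 and 45.7 CPM of Prkcb in room air and 37.1, 34.2, 27.5 and 30.8 in hypoxia. Knockout lungs had 47.6, 42.1, 38.6 and 49.4 CPM in room air and 16.6, 15.5, 11.9 and 12.6 in hypoxia. Hypoxia samples lay below room air samples in either genotype. The Prkcb interaction was lost without the 4 samples that held transcripts of other organs (-1.18, adjusted p = 0.0647), and without wild type room air 4, wild type hypoxia 1, knockout room air 1 or 4, or knockout hypoxia 3 or 4 (values of -0.92 to -0.89, adjusted p of 0.0511 to 0.0716).

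For each tested member the 3 genes of most similar level were taken from all genes with a mean of at least 1 CPM, by Pearson's r of log2 CPM over the 16 samples. For Ace they were Fn1 (r = 0.959), Notch3 (0.938) and Col4a2 (0.932), and within groups r was 0.881, 0.876 and 0.874. For Mme they were Smad5 (0.949), Cald1 (0.948) and Nipal2 (0.938), and for Enpep Ralb (0.895), Ackr3 (0.880) and Cd302 (0.874). Agt was nearest to Vsig10l (0.835), Clmp (0.833) and Cemip (0.829), and Agtr1a to Prkg2 (0.740), Fign (0.727) and Cdkl4 (0.720).

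Among the members themselves the closest pair was Enpep and Mme, with r = 0.694 over the 16 samples and 0.395 within groups. Ace and Enpep had r = -0.0135 over all samples and -0.506 within groups, and Ace and Mme 0.210 and -0.380. The samples share their groups, depth and scaling, and each r was picked or read as a description, without a test.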

How the data were processed

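Total RNA from lung was depleted of ribosomal RNA and sequenced with a directional kit, per the labels' protocols. The submitters' processing notes name Trim Galore, TopHat2, HTSeq and the build mm10; the tools' versions, the annotation and the strand setting are not stated there. Each deposited table holds raw counts per gene symbol. The 5 lines that name no gene stayed out of library sizes and tests; reads in no gene made up 35.8% to 74.6% of the sum of both kinds of read.

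Libraries A and B of one number were summed (chi-square per degree of freedom 1.86 to 2.83 between them, 4.05 or more to other numbers), so 20 libraries became 16 samples. What A and B stand for is not stated, and separate animals are not stated either, so the spread behind the p-values may be technical. In R 4.3.3, edgeR 4.0.16 (TMM, filterByExpr with minimum count 10 and total 15, robust quasi-likelihood fit over all 4 groups, two-sided tests, Benjamini-Hochberg adjustment over all genes, calls at 0.05) gave each comparison; the same steps were tested on simulated data. Y-linked genes, Xist and Tsix stayed out of the counts of calls, leaving 15761. Intervals are at 95% and come from the fit; a floor is 3 counts and covers counting error only. CPM uses TMM-scaled library sizes. Positions are from GENCODE on GRCm38, the assembly behind mm10, and RPKM divides CPM by the exon length there. Members and lists were chosen with earlier results of these data known. Named genes are the 7 members, Ren1, Ren2 and Agtr1b, each called gene of the wider and kinin lists, the 3 called signalling genes of smallest p in each comparison, the 3 genes most like each tested member, and Arg2; 1 further gene is not reported here.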

Additional observations from a re-analysis of the deposited data

Results flagged for a closer look

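Agtr1a in wild type room air 2, at 9.27 CPM, lay apart from the other 3 samples of its group, which ran from 12.4 to 13.0 CPM. The gap to its neighbour was 0.832 of the range of the group. Agtr2 in wild type hypoxia 4 (0.176 CPM, 6 counts) and in knockout room air 2 (0.0531 CPM, 1 count) was the 1 sample of its group with any count. The same held for Mas1 in wild type room air 1 (0.0441 CPM, 2 counts) and knockout room air 3 (0.061 CPM, 4 counts). Chance alone sets a sample apart in this way in about 1 of 20 groups, and more often where the others are at 0.

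The hypoxia effect on Prkcb differed between genotypes by -0.958 on the log2 scale (edgeR adjusted p = 0.0243).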

How the results depend on the processing

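Each comparison between 2 groups was refitted under 28 alternatives, 16 of which left out 1 sample. For the 5 tested members over all comparisons, 629 values kept direction and side of the threshold, 14 calls were lost, 34 were gained and 18 values changed sign; for the other named genes 868 values did so and 72 calls were lost. Members called with hypoxia in wild type (2) became 3 by DESeq2 or with the GC trend removed, and 0 with the compared groups alone. There was 1 without the 4 samples that held transcripts of other organs, all of them from the knockout. All genes called in wild type went from 785 to 1135 by DESeq2 and 923 with the GC trend removed. With the compared groups alone they were 400, and without the 4 samples 613. Members called with hypoxia in the knockout (1) became 3 by DESeq2, with the GC trend removed or with the compared groups alone. They were 2 with A libraries only and 0 without the 4 samples. All genes called in the knockout went from 2685 to 3224, 3254, 3424, 2674 and 1092 in the same order. Between genotypes in hypoxia (0) there was 1, lower, with upper quartile scaling, DESeq2, limma voom, compared groups alone or without the 4 samples. All genes called there were 3632, and in those settings 3630, 4270, 3809, 3543 and 2260 in the same order. Leaving out 1 sample gave 0 to 2 members in each hypoxia or genotype comparison and 0 for the difference between effects.

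Whether equal replicate numbers pair the samples was not settled. Over 24 pairs of equal number the correlation of deviations ran from -0.327 to 0.46, over 0.1 in 12. Pairs of unequal number were not computed beside them, so these values cannot decide it. With the replicate number as a block, 3 members were called with hypoxia in wild type (Ace gained, adjusted p = 0.0327), 2 in the knockout (Mme gained, 0.0381) and 2 between genotypes in hypoxia (Ace, 0.0383, and Agt, 0.0451); with the block and GC trend removed, 3 were called in wild type and 3 in the knockout. Of all genes the block gave 823 called with hypoxia in wild type, 2714 in the knockout and 3817 between genotypes in hypoxia. It gave 238 genes called between genotypes in room air and 157 for the difference. With the GC trend removed too, there were 897 in wild type, 3142 in the knockout and 219 for the difference.

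Genes called between genotypes in room air (12) were the least stable: 29 with DESeq2 size factors, 113 with upper quartile scaling, 1091 by DESeq2, 958 by limma voom, 20 without a filter, 31 with the GC trend removed, 207 with A libraries only, 4 with compared groups alone, 0 without the 4 samples and 0 to 2197 without 1 sample. With hypoxia in wild type (785) compared groups alone gave 400, and leaving out 1 sample 484 to 1051. Without the 4 samples there were 1092 with hypoxia in the knockout (2685; 2011 to 3056 without 1 sample) and 2260 between genotypes in hypoxia (3632; 2092 to 4336). The difference (79) became 474 by DESeq2, 176 with the GC trend removed, 13 without the 4 samples and 26 to 125 without 1 sample. Upper quartile scaling moved the knockout hypoxia split from 1251 higher and 1434 lower to 1078 and 1615, and GC removal to 1900 and 1354; GC removal moved the genotype split in hypoxia from 1732 and 1900 to 1801 and 1463. The cause of these moves was not tested.

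Signs changed for values that were not called. With the GC trend removed, and with block and GC together, the genotype difference in room air became -0.010 and -0.009 for Enpep and -0.108 and -0.109 for Mme, and in hypoxia -0.148 and -0.150 for Mme. The difference between hypoxia effects on Ace became -0.213 without the 4 samples and ran from -0.020 to 0.110 without 1 sample. Without 1 sample Agtr1a ran from -0.155 to 0.106 (hypoxia in wild type), -0.049 to 0.108 (genotype, room air), -0.110 to 0.139 (genotype, hypoxia) and -0.175 to 0.075 (difference), and Agt from -0.078 to 0.493 (hypoxia in knockout). Depth limits Agt, Agtr1b, Agtr2 and Mas1 most, since 3 counts stand for 0.0457 to 0.323 CPM.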

Other observations

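Other genes of the wider list were called by edgeR in 0 of the 5 comparisons. Agtrap, which binds the AT1 receptor and promotes its internalization, had 20.6 RPKM as the mean of the 16 samples (16.6 to 26.2). Lnpep, the aminopeptidase that binds angiotensin IV, had 16.9 (13.3 to 20.4), and Anpep, aminopeptidase N, which trims angiotensin III, had 13.4 (9.77 to 18.9). Anpep was lower in the knockout in room air at an unadjusted p of 0.00143, with no overlap (log2 fold change -0.45 ± 0.12, edgeR adjusted p = 0.0669), and was called there by DESeq2 (adjusted p = 0.0197) and limma voom (0.0386). Each of these 3 thus had more transcript per length than Agtr1a in every sample. Mrgprd, a receptor of the angiotensin-related peptide alamandine, had 0 counts in all 16 samples, and Ctsg, the neutrophil protease cathepsin G, had 17 counts in 5 samples.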
